A study of Raphidocelis subcapitata with 493 samples.

Results

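FHxSA, the sulfonamide of the perfluorohexane chain, was tested on the freshwater green alga Raphidocelis subcapitata at 7 nominal concentrations, 0.1, 0.3, 1, 3, 10, 32 and 100 µM. Its 21 libraries, 3 per concentration, were chosen by their compound label from the 493 libraries of a series on 22 fluorinated chemicals. They were set against the 3 DMSO libraries of the same exposure. Every group was a culture in exponential growth, exposed for 24 h in 96-well plates under constant light, and every well held 0.33% solvent, controls included. RNA came from pooled homogenates of wells, and no label says whether replicates were separate cultures; p-values therefore reflect how far these libraries scatter, part of which may be technical. The series text allows DMSO or methanol as solvent and does not say which one carried FHxSA, while the control label names DMSO. FHxSA shared its exposure and its DMSO libraries with N-EtFOSA-M, and PFHxS, the sulfonate of the same chain length, came from another exposure with 3 DMSO libraries of its own. Cells of the alga were counted in no file used here, and in bulk RNA fewer cells of a kind and less RNA per cell cannot be told apart.

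Perfluoroalkane sulfonamides occur where firefighting foams were used and can be transformed to the sulfonates of the same chain length. The sulfonamide group can lose a proton, so the compound exists in a neutral and a charged form, whereas the sulfonates are anions. In isolated rat liver mitochondria the longer perfluorooctane sulfonamide is known as an uncoupler of oxidative phosphorylation; what FHxSA does in algal cells is not given in the sources used here. The title of the series names the concentration at which expression begins to change as its question. The files give gene identifiers without names or functions, so the response is described by its size, its course over concentration and its overlap with the other compounds, and through 4 genes picked by the size of their change.

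Expression was measured with a 3' tag kit, in counts per gene for 13429 identifiers. The 24 libraries had total counts from 1197963 to 1677591, with 10981 to 11363 genes detected, and the 10 most abundant genes took 5.53% to 6.33% of the counts. All 24 pairs of replicates differed beyond counting noise (chi-square over degrees of freedom between 1.91 and 5.39). The first principal component held 14.1% of the variance. Its mean scores were -17.4 in DMSO, then -8.4, -8.4, -5.1 and -3.8 from 0.1 to 3 µM, and 7, 16 and 20 at 10, 32 and 100 µM. The libraries from 10 µM up lay above all others, and the DMSO libraries lay below all treated ones. Replicate 3 had the lowest score in each of the 8 groups, and at 10 µM it stood apart, at 0.2 against a highest score of 11. On the second component (7% of the variance) the DMSO libraries scored 18.7, 11.4 and 16.6. The highest score from 0.1 to 3 µM was 4.84, while replicate 1 at 10 µM scored 16.1.

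**Figure D1:**
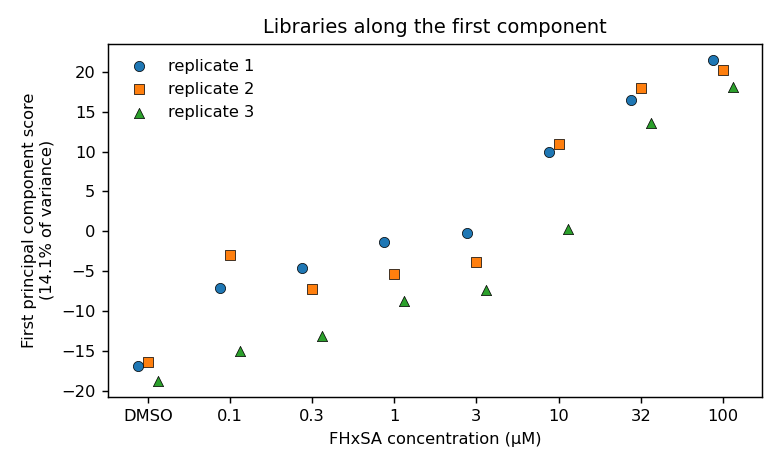
Scores of the 24 libraries on the first principal component of log2 expression (vertical axis, 14.1% of variance) by FHxSA concentration (horizontal axis, DMSO at the left), with a marker shape for each replicate number. The 3 DMSO libraries sit between -18.8 and -16.4, below every treated library, and the 100 µM libraries between 18.1 and 21.5.

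Few genes were called against DMSO up to 3 µM and many from 10 µM up. All 7 contrasts use the same 3 DMSO libraries. At 0.1 to 3 µM a change with FHxSA therefore cannot be told apart from an offset of these libraries. Such an offset would enter the counts from 10 µM up as well. A gene was called changed at an adjusted p under 0.05 (edgeR's quasi-likelihood test, Benjamini-Hochberg adjustment over 9482 genes). Against DMSO, 65 genes were higher and 19 lower at 0.1 µM, 0.886% of those tested. At 0.3 µM the counts were 115 and 37 (1.6%), at 1 µM 86 and 36 (1.29%), and at 3 µM 98 and 59 (1.66%). They then stood at 323 higher and 303 lower at 10 µM (6.6%), 584 and 623 at 32 µM (12.7%), and 673 and 787 at 100 µM (15.4%). In both directions together these were 626, 1207 and 1460 genes. With 0.1 µM in place of DMSO as the reference, 42, 332 and 767 genes were called at the same concentrations. The balance of directions against DMSO moved as well. Higher genes made up 77.4%, 62.4%, 51.6% and 46.1% of the calls at 0.1, 3, 10 and 100 µM. The share at 0.1 µM was 44.4% without the DMSO library of replicate 3, 33.3% without all libraries numbered 2 and 52.9% without those numbered 3.

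Most of the changes were small. The median size of a called change lay between 0.58 and 0.62 on the log2 scale at all 7 concentrations. Called genes past 2-fold numbered 16, 19, 12 and 19 at 0.1, 0.3, 1 and 3 µM, then 64 at 10 µM, 159 at 32 µM and 218 at 100 µM. At 100 µM, 128 of these were lower and 90 higher, and 28 genes passed 4-fold. At 32 µM the genes past 2-fold were 69 lower and 90 higher ones. No gene was silent in the 3 DMSO libraries while reaching 10 counts in each library at 100 µM, or the reverse. At 0.1 µM 1 gene did so, with 10 to 11 counts per library against 0 in DMSO. It gave the largest fitted change at every concentration except 3 µM, between 5.94 and 6.4 on the log2 scale, values that depend on the prior count; its counts at 100 µM were 5 to 13.

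**Figure D2:**
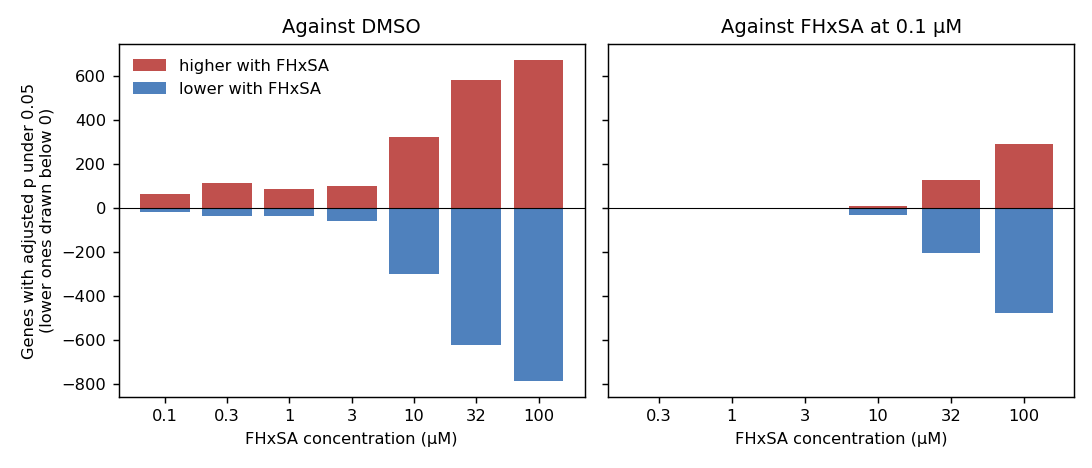
Number of genes called at an adjusted p under 0.05, higher with FHxSA above 0 and lower below 0, at each FHxSA concentration against the 3 DMSO libraries (left) and against FHxSA at 0.1 µM (right). Against DMSO the calls reach 673 higher and 787 lower at 100 µM, and against 0.1 µM they appear from 10 µM on.

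The calls at the 4 lowest concentrations varied with the libraries left out. Every omission also leaves fewer libraries in the fit, which can by itself lower the count. Without the DMSO library of replicate 3 they were 9, 60, 38 and 60 genes at 0.1, 0.3, 1 and 3 µM, and without that of replicate 1 they were 37, 91, 43 and 87. Without all libraries numbered 2 they were 6, 8, 10 and 23, and the same omission left 135 at 10 µM, 470 at 32 µM and 758 at 100 µM. Leaving out number 1 gave 29, 96, 52 and 70 genes at the 4 lowest concentrations, 770 at 32 µM and 922 at 100 µM, and leaving out number 3 gave 34, 98 and 102 at 0.1, 0.3 and 3 µM and 952 at 100 µM. At 0.1 µM 49 genes were called without the DMSO library of replicate 2. At 10 µM the count was 356 without the DMSO library of replicate 3 and 348 without replicate 2 at 10 µM.

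Comparisons among treated libraries do not use the control. Set against 0.1 µM, edgeR called 0 genes at 0.3, 1 and 3 µM, with 355, 396 and 466 genes at an unadjusted p under 0.05, and DESeq2 called 0 at each. At 10 µM 9 genes were higher and 33 lower (0.443% of those tested). At 32 µM the counts were 127 and 205 (3.5%), and at 100 µM they were 289 and 478 (8.09%). Lower genes outnumbered higher ones at each of these 3 concentrations. Against DMSO at 10 µM the calls were 323 higher and 303 lower, and this majority turned with the method. RLE size factors gave 313 higher and 321 lower genes there, and DESeq2 gave 300 and 325. At 100 µM, 75 of the genes past 2-fold were lower and 35 higher than at 0.1 µM. Leaving out number 2 gave 1 gene at each of 0.3, 1 and 3 µM and 4, 74 and 329 genes at 10, 32 and 100 µM; leaving out number 1 gave 6, 203 and 419, and leaving out number 3 gave 155 at 32 µM and 374 at 100 µM.

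No single step between neighbouring concentrations separated many genes. From 1 to 3 µM the tests of edgeR and DESeq2 both called 0 genes, with 454 at an unadjusted p under 0.05. At 10 µM 1 gene was higher and 4 were lower than at 3 µM (0.0527%), at 32 µM 1 gene was lower than at 10 µM (0.0105%), and at 100 µM 2 were higher and 26 lower than at 32 µM (0.295%). The 10 µM libraries were also set against the mean of 3 and 32 µM. There edgeR called 0 genes, with 393 at an unadjusted p under 0.05, and DESeq2 called 0; the 95% interval of a log2 difference reached a median of 0.397 to either side. The spread was widest at this concentration, with a median SD within the group of 0.256 on the log2 scale, against 0.197 to 0.225 in the other groups. Without replicate 3 at 10 µM, 85 genes differed from 3 µM and 196 from 0.1 µM; without replicate 2 at 10 µM the counts were 1 and 7, and without replicate 1 they were 2 and 43. The single difference between 32 and 10 µM became 7 without replicate 3 at 10 µM and 0 without replicate 1 there. Without all libraries numbered 3 the steps to 10 and to 32 µM gave 36 and 9 calls, and without those numbered 2 the step to 10 µM gave 0. The step from 32 to 100 µM gave 9, 2 and 14 calls without replicate number 1, 2 and 3.

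A linear trend over the ranked concentrations used all libraries at once and called more genes than any contrast. With DMSO at the lowest rank, 910 genes were higher and 1021 lower with concentration (20.4% of those tested). Over the 21 treated libraries alone, 631 were higher and 780 lower (14.9% of 9443). The majority turned with library totals in place of TMM factors, which gave 1028 higher and 946 lower genes with DMSO and 745 higher and 690 lower ones without it. Without the 100 µM libraries 555 genes had a called trend, 242 higher and 313 lower. Leaving out a replicate number gave 724 (number 3), 769 (number 2) and 1000 (number 1); with DMSO included, numbers 3 and 2 gave 1184 and 1213.

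The genes with a trend over the treated libraries moved gradually. Relative to 0.1 µM, the 631 higher genes stood at a median log2 difference of 0.007, 0.045, 0.116, 0.24, 0.368 and 0.465 at 0.3, 1, 3, 10, 32 and 100 µM. The 780 lower genes stood at 0.011, -0.045, -0.105, -0.246, -0.37 and -0.468 at the same concentrations. Both groups were chosen on these libraries, so the course describes them and tests nothing. Over all genes the median stayed between -0.002 and 0.01. The DMSO libraries did not enter the choice, and in them the higher genes stood at -0.043 and the lower ones at 0.029, close to the levels at 0.1 µM. The course bent for few genes. The quadratic term of the rank was called for 31 genes (0.328%), 25 of which curved downward; the other 6 made up 19.4%, and 33.3% with library totals in place of TMM factors. Without number 2 or number 3 the term was called for 3 and 1.

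**Figure D3:**
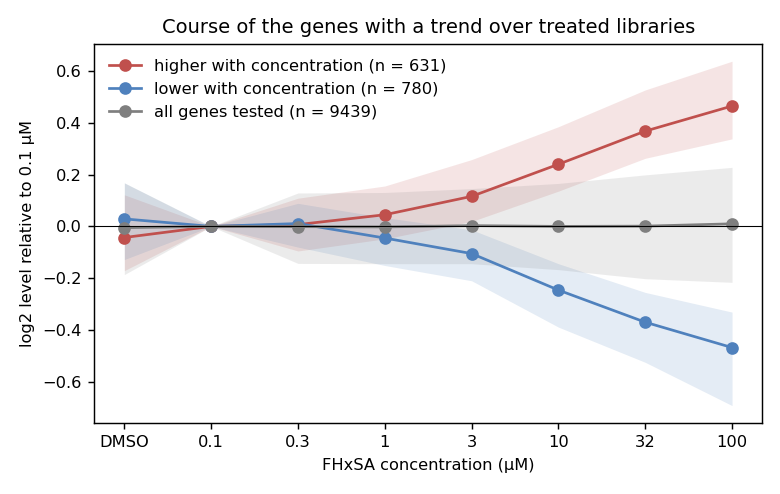
Median log2 level relative to FHxSA at 0.1 µM (vertical axis) by concentration (horizontal axis, DMSO at the left) for the 631 genes higher and 780 genes lower with concentration over the treated libraries, and for all genes tested; bands span the quartiles over genes. The 2 groups of genes part from 1 µM on and reach medians of 0.465 and -0.468 at 100 µM.

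Genes were named by the size of their change at 100 µM, among 334 higher and 461 lower candidates with calls at 100 µM against DMSO and in the trend over treated libraries, the same direction in both and a mean of at least 20 counts. The first 2 in each direction were Rsub_07655 and Rsub_01119, which rose, and Rsub_11711 and Rsub_03656, which fell. Their size at 100 µM and their trend served in the choice and are given as a description. Their contrasts with other compounds use the same FHxSA libraries, so the FHxSA side of those contrasts is not free of the choice. Levels are in CPM, the count in a library relative to its scaled total, on a scale shared with the N-EtFOSA-M libraries.

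Rsub_07655 rose smoothly from 10 µM on. It had 18.1, 23.9 and 17.2 CPM at 0.1 µM, 25.0, 23.8 and 22.6 CPM at 3 µM, 32.7, 36.0 and 37.2 CPM at 10 µM, 60.4, 50.4 and 58.2 CPM at 32 µM and 59.0, 65.4 and 69.7 CPM at 100 µM, against 16.5, 20.5 and 20.7 CPM in DMSO. Every library from 10 µM up lay above every library at or below 3 µM. The log2 fold change against DMSO was 0.88 (SE 0.24) at 10 µM, 1.54 (SE 0.23) at 32 µM and 1.75 (SE 0.22) at 100 µM, with adjusted p-values of 0.014, 8.4e-07 and 1.3e-08 (edgeR). N-EtFOSA-M gave almost the same course, with 59.2, 70.4 and 66.5 CPM at 100 µM, and the difference FHxSA minus N-EtFOSA-M was -0.01 there (95% interval -0.41 to 0.39). With PFHxS the gene stayed at 20.6, 24.7 and 27.4 CPM at 100 µM, against 25.0, 23.0 and 22.0 CPM in its own DMSO libraries. The slope per rank of concentration was higher with FHxSA than with PFHxS by 0.29 (SE 0.05, adjusted p = 1e-04, edgeR). Over their own treated libraries, 10 of the 21 other compounds called this gene higher with concentration and 0 lower.

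Rsub_01119 rose over the same concentrations, with wider spread. It had 29.8, 31.6 and 49.6 CPM at 0.1 µM, 50.8, 33.7 and 46.7 CPM at 3 µM, 70.2, 67.3 and 66.6 CPM at 10 µM, 132.7, 67.9 and 94.5 CPM at 32 µM and 170.4, 95.3 and 97.6 CPM at 100 µM, against 42.4, 32.7 and 34.5 CPM in DMSO. Every library from 10 µM up exceeded every library below, and replicate 1 was the highest at 10, 32 and 100 µM. The log2 fold change at 100 µM was 1.73 (SE 0.24, adjusted p = 2.1e-06, edgeR), and 1.39 without replicate 1 at 100 µM. Here the course differed between FHxSA and the related compounds. With PFHxS, scaled within its own exposure, the gene had 129.9, 110.4 and 102.7 CPM at 100 µM, overlapping the levels with FHxSA. Its own DMSO libraries had 194.0, 137.9 and 123.2 CPM. With N-EtFOSA-M the gene had 43.3, 30.7 and 46.7 CPM at 100 µM, and the difference FHxSA minus N-EtFOSA-M was 1.52 at 32 µM (SE 0.26, adjusted p = 3.1e-05) and 1.59 at 100 µM (SE 0.25, adjusted p = 4.9e-06). The slope was higher with FHxSA by 0.33 against N-EtFOSA-M (SE 0.06, adjusted p = 1e-04) and by 0.31 against PFHxS (SE 0.05, adjusted p = 0.00014). Of the 21 other compounds 0 called the gene higher with concentration and 1 called it lower.

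The control level of Rsub_01119 varied widely over the series. The DMSO mean of the FHxSA exposure was the lowest of the 11 exposures, at 35.8 CPM when all 33 DMSO libraries were scaled together (36.5 CPM on the scale used above), against a median of 81.5 and a highest mean of 330. The level reached with 100 µM FHxSA, 121 ± 42.7 CPM (SD, n = 3), thus lay inside the range of control means elsewhere. Rsub_07655 also had its lowest DMSO mean in this exposure, 18.8 CPM in a range up to 52.7 CPM, and its 100 µM level of FHxSA exceeded that range in each library.

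Rsub_11711 fell late. It had 16.2, 27.5 and 22.1 CPM at 0.1 µM, 23.4, 19.9 and 38.7 CPM at 3 µM, 20.4, 19.1 and 23.8 CPM at 10 µM, 12.8, 11.9 and 10.6 CPM at 32 µM and 7.38, 5.69 and 3.41 CPM at 100 µM, against 24.3, 34.2 and 27.6 CPM in DMSO. The 10 µM libraries overlapped those at lower concentrations, and the 32 and 100 µM libraries lay below all others. The log2 fold change against DMSO was -1.29 (SE 0.31) at 32 µM and -2.37 (SE 0.35) at 100 µM, with adjusted p-values of 0.0027 and 5.8e-07 (edgeR). It was among the 31 genes with a called bend, with a quadratic term of -1.93 (SE 0.41, adjusted p = 0.014). With N-EtFOSA-M it had 21.3, 18.0 and 16.1 CPM at 100 µM. The difference FHxSA minus N-EtFOSA-M was -1.73 there (SE 0.36, adjusted p = 0.001), while the slopes over the whole range differed by -0.16 (95% interval -0.3 to -0.03, adjusted p = 0.28).

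Rsub_03656 moved in opposite directions with the 2 compounds of the exposure, with a slope per rank of -0.24 along FHxSA (adjusted p = 0.00053) and 0.27 along N-EtFOSA-M (adjusted p = 1.4e-05, edgeR). With FHxSA it had 11.7, 17.3 and 22.7 CPM at 0.1 µM, 15.3, 16.1 and 29.2 CPM at 3 µM, 8.98, 13.0 and 9.11 CPM at 10 µM, 9.36, 5.60 and 12.1 CPM at 32 µM and 4.43, 5.69 and 6.15 CPM at 100 µM, against 26.7, 16.0 and 26.8 CPM in DMSO. The log2 fold change at 100 µM was -2.07 (SE 0.38, adjusted p = 4.5e-05, edgeR), and the 100 µM libraries lay below every library except 1 at 32 µM. With N-EtFOSA-M the gene had 13.6, 16.5 and 17.3 CPM at 0.1 µM, 46.7, 41.3 and 35.1 CPM at 10 µM, 64.0, 64.2 and 44.6 CPM at 32 µM and 32.6, 33.7 and 43.6 CPM at 100 µM. From 10 µM on, all N-EtFOSA-M libraries thus lay above all FHxSA libraries. The difference FHxSA minus N-EtFOSA-M was -1.97 (SE 0.31, adjusted p = 2e-05) at 10 µM, -2.67 (SE 0.31, adjusted p = 6.2e-10) at 32 µM and -2.73 (SE 0.34, adjusted p = 9.8e-09) at 100 µM, and the slopes differed by -0.51 (SE 0.07, adjusted p = 1e-07). Against PFHxS the slope difference was -0.20 (95% interval -0.35 to -0.05, adjusted p = 0.11). The DMSO means of this gene over the 11 exposures ran from 4.84 to 91.9 CPM, and that of the FHxSA exposure was 22.7 CPM.

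**Figure D4:**
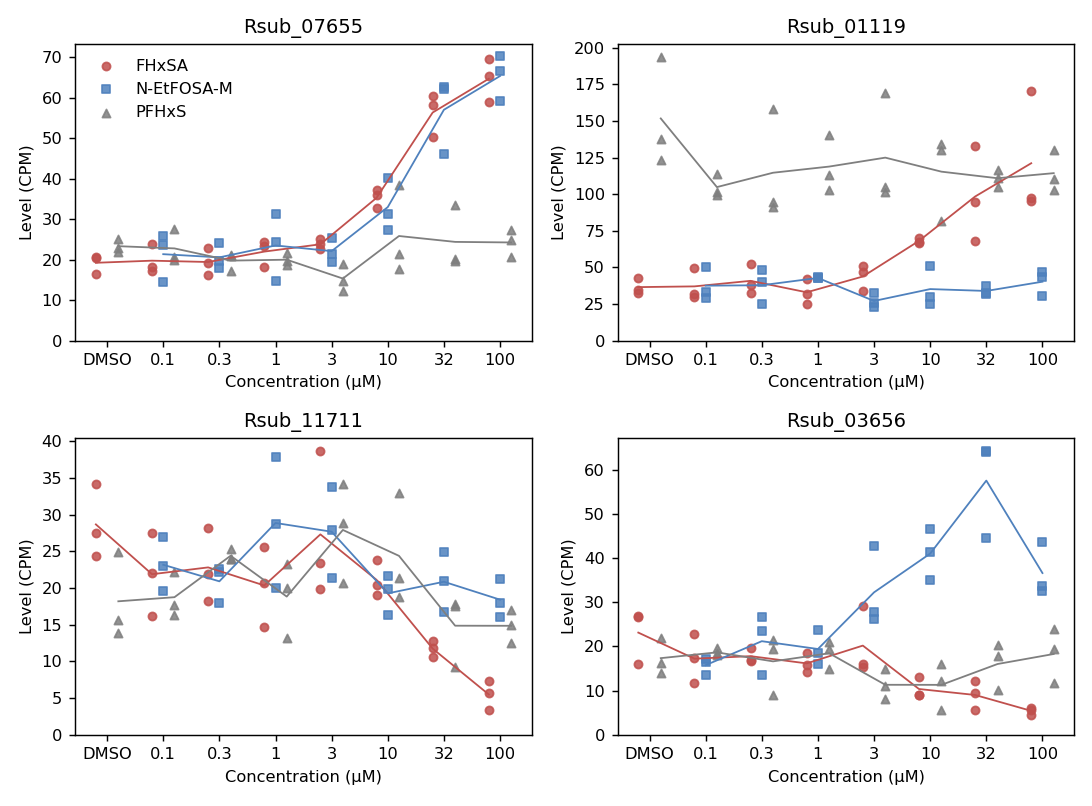
Levels of the 4 named genes in CPM (vertical axes) by nominal concentration (horizontal axes, DMSO at the left), 1 point per library with lines through the means, for FHxSA, N-EtFOSA-M and PFHxS; N-EtFOSA-M shares the DMSO libraries drawn for FHxSA, and PFHxS has its own. Rsub_07655 follows the same course with FHxSA and N-EtFOSA-M, and Rsub_03656 lies at 4.43 to 6.15 CPM with FHxSA and at 32.6 to 43.6 CPM with N-EtFOSA-M at 100 µM.

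How many genes could be called depended on their abundance. The genes were divided into 4 equal groups by mean level. In the lowest group (median 10.5 CPM), 4.05% were called at 100 µM against DMSO. In the following groups the shares were 7.97%, 16.8% and 32.8%, the last at a median level of 165 CPM. The 95% interval of a log2 fold change extended by a median of 0.85 to either side in the lowest group and 0.26 in the highest. Large changes were most often called among scarce genes, 91 of them past 2-fold in the lowest group and 25 in the highest. Among the most abundant genes the calls leaned toward falls, 325 higher and 453 lower. Changes well under 2-fold in the scarcest genes were mostly not detectable at this depth.

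The concentration at which single genes left their starting level was estimated from fitted curves, as a benchmark concentration at 1 residual SD from the start of the curve. Curves were fitted where the trend was called and some concentration reached 1.5-fold. With DMSO as the start, 1020 genes had a median of 3.9 µM and a 10th percentile of 0.0469 µM, below the lowest concentration tested. Of these genes 15.5% had a value under 0.1 µM, which is an extrapolation. Over the treated libraries alone, where curves start at 0.1 µM, 519 genes had a median of 7.36 µM and a 10th percentile of 1.21 µM, and 43.2% had a value of 10 µM or more. Rising genes had lower values than falling ones, with medians of 2.83 and 4.88 µM with DMSO and 6.26 and 8.39 µM without it; this order was not tested, since genes are not replicates.

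The fits with and without DMSO hold different genes, selected by different trends. For the 367 genes with a value in both, the median was 5.6 µM with DMSO and 6.85 µM without it, and the 10th percentile 0.755 and 1.26 µM; this subset was added after seeing the results. Among the named genes the values over treated libraries, and in brackets with DMSO, were 1.42 µM (1.29) for Rsub_07655, 3.27 µM (2.99) for Rsub_01119, 6.54 µM (6.26) for Rsub_03656 and 18 µM (17.4) for Rsub_11711. The benchmark values of these 4 genes thus spanned more than 10-fold in concentration. They have no interval here, and each depends on the residual SD of the gene and the curve chosen. For Rsub_07655 the value lay below 3 µM, where the log2 fold change against DMSO was 0.31 (SE 0.25, adjusted p = 0.63, edgeR). At 2 residual SD the 10th percentile was 0.115 µM with DMSO and 3.28 µM over treated libraries, and the medians were 9.98 and 18.5 µM.

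N-EtFOSA-M was compared with FHxSA at each of the 7 matched concentrations, within the same exposure and with the same time and control. At 32 µM 83 genes were higher and 200 lower with FHxSA (2.93% of 9660 tested, edgeR), and at 100 µM 80 were higher and 194 lower (2.84%). Fewer differed at lower concentrations, with 4 higher and 4 lower at 0.1 µM (0.0828%), 25 and 32 at 1 µM (0.59%), 7 and 56 at 3 µM (0.652%) and 8 and 39 at 10 µM (0.487%). At 0.3 µM edgeR and DESeq2 called 0 genes, with 862 at an unadjusted p under 0.05. From 3 µM up the differing genes were mostly lower with FHxSA. With p-values adjusted over all 7 pairs together, 31, 17, 73, 69, 58, 187 and 208 genes differed from 0.1 to 100 µM. The typical interval of a difference at 100 µM reached 0.493 to either side on the log2 scale, so smaller differences between the 2 compounds were not detectable for most genes.

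Only a small share of the genes was called different in course between FHxSA and N-EtFOSA-M. At an unadjusted p under 0.05 the slopes differed for 1134 of 9648 genes. The 95% interval of a slope difference reached a median of 0.094 per rank to either side, so smaller differences were mostly not detectable. The slope over treated libraries differed for 173 genes (1.79%), 55 with a higher and 118 with a lower slope with FHxSA. Among the 118, the trend along N-EtFOSA-M was itself called higher for 84, and 14 of those had a called fall along FHxSA, as Rsub_03656 did. Another 28 were called lower along FHxSA with no call along N-EtFOSA-M. Among the 55, 40 were called lower along N-EtFOSA-M, and 13 were called higher along FHxSA with no call along N-EtFOSA-M. These classes use the same libraries as the slope test and only describe it. Measured as the change from 0.1 to 100 µM in place of the slope, 100 genes differed (1.04%), 32 with a higher and 68 with a lower change with FHxSA.

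The counts against N-EtFOSA-M depended on replicate number 2. Without it, 79 genes differed at 100 µM, 67 at 32 µM, 25 in the change from 0.1 µM and 61 in the slope. At 32 µM it was 164 without number 3. At 0.1 µM it was 29 without number 1 and 1 without number 2, and at 0.3 µM 17 without number 1 and 1 without number 3. At 1 µM the count was 185 without number 3, 7 without number 1 and 0 without number 2. At 3 µM the counts in the same order were 19, 157 and 1, and at 10 µM 77 differed without number 1 and 7 without number 2.

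PFHxS carries the sulfonate in place of the sulfonamide. Its own trend over treated libraries was called for few genes, 7 higher and 9 lower of 9328 tested. Of these, 4 had a called trend in the same direction along FHxSA and 1 in the opposite direction. The slope differed for 339 genes (3.46% of 9801), 168 with a higher and 171 with a lower slope with FHxSA. Of the genes with an FHxSA trend, 134 of 630 higher and 148 of 780 lower ones differed in slope from PFHxS, and for the rest a difference was not detectable at these intervals, whose median reached 0.096 per rank to either side. The compounds were also compared as changes from their own DMSO. At 10 µM 216 genes had a higher and 364 a lower change with FHxSA (5.9% of 9830), at 32 µM 247 and 365 (6.23%), and at 100 µM 390 and 585 (9.92%).

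These differences of changes carried the control libraries of both exposures, and at 0.1 µM they already numbered 5 higher and 30 lower with FHxSA (0.356%). Changes from 0.1 to 100 µM, which use no control, differed for 24 genes with a higher and 50 with a lower change with FHxSA (0.753%). The higher ones were 32.4% of these, and 45.9% with library totals in place of TMM factors. Leaving out replicate number 2 gave 80, 47 and 173 genes at 10, 32 and 100 µM against DMSO, 2 at 0.1 µM, 7 in the change from 0.1 µM and 75 in the slope. Leaving out number 3 gave 267, 328 and 502 genes at 10, 32 and 100 µM, 16 in the change from 0.1 µM and 88 in the slope. The exposure and the compound cannot be told apart in this comparison beyond what each control corrects.

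The genes with an FHxSA trend were then looked up in the trends of the other 21 compounds, each over its own treated libraries, so that no library entered both lists. The concentrations were not the same for every compound, and PFTrDA was tested only below 10 µM. How far the concentrations set the calls along such a compound was not tested. PFTDoDA shared the most genes, 587 in all. Its trend was called higher for 218 of 625 genes that were higher with FHxSA (34.9%, against 12.1% of all genes tested with both compounds), and lower for 369 of 765 that were lower (48.2% against 10.3%). Counted the other way, these were 19.5% of its higher and 38.5% of its lower genes. Along FHxSA, 625 of the 9265 genes tested with both compounds were called higher and 765 lower. N-EtFOSA-M shared 146 higher genes (23.4% of the FHxSA list against 5.33% of all, and 29.3% of its own list) and 290 lower genes (37.2% against 6.34%, and 49% of its own list). Of the 9340 genes tested with both of these compounds, FHxSA called 624 higher and 779 lower. FC10diol shared 224 higher genes (36.4% against 23.1%) and 236 lower genes (31.7% against 18.7%), and it called 80 of the higher genes lower (13% against 18.7% of all) and 125 of the lower genes higher (16.8% against 23.1%). 8:2FTS had a short list that overlapped with that of FHxSA in large part. Of its 149 higher genes 65 (43.6%) and of its 189 lower genes 112 (59.3%) were in the FHxSA list. That list held 626 higher and 752 lower genes of the 9129 tested with both. The shared genes made up 10.4% and 14.9% of the FHxSA list, while 8:2FTS called 1.63% and 2.07% of all genes. The median slope per rank of the FHxSA lists was 0.047 (higher genes) and -0.056 (lower genes) along PFTDoDA, 0.048 and -0.061 along N-EtFOSA-M and 0.018 and -0.033 along 8:2FTS. Along PFHxS it was 0.006 and -0.007, and over all genes it lay between 0 and 0.002 for each of these 4 compounds.

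FC8diol shared 107 higher genes (17.3% of the FHxSA list against 7.31% of all) and 138 lower genes (18.5% against 8.36%), and PFUdA shared 75 (12.3% against 4.78%) and 126 (16.7% against 5.22%). In the opposite direction, FC8diol called 30 of the higher genes lower (4.84% against 8.36%) and 60 of the lower genes higher (8.03% against 7.31%). For PFUdA these were 14 (2.29% against 5.22%) and 36 (4.78% against 4.78%). Among the sulfonates, PFOS, with a longer chain than FHxSA, shared 47 higher genes (7.58% against 2.35%) and 60 lower genes (7.87% against 1.95%). PFOS also called 17 of the higher genes lower (2.74% against 1.95%) and 20 of the lower genes higher (2.62% against 2.35%). The median slope of the FHxSA lists along PFOS was 0.001 for higher and -0.009 for lower genes. PFHxS, of the same chain length, shared 1 higher and 3 lower genes, 0.161% of the FHxSA list against 0.0771% of all and 0.392% against 0.0992%. Counted the other way, these were 14.3% of its 7 higher and 33.3% of its 9 lower genes. FHxSA called 622 higher and 766 lower of the 9075 genes tested with both. PFPB lay near the share of all genes, with 12 higher (1.91% against 3.45%) and 48 lower genes (6.23% against 5.32%). It called 57 of the higher genes lower (9.08% against 5.32% of all) and 72 of the lower genes higher (9.35% against 3.45%). How far gene abundance, the concentrations used, and depth and spread in each exposure set these shares was not tested.

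The course over concentration was also compared between these compounds. The slopes of FHxSA and PFTDoDA differed for 853 genes (8.77%), 206 higher and 647 lower with FHxSA, and 529 of those 647 were called higher along PFTDoDA. Without TMM factors the share of higher slopes in this comparison was 34.9%, in place of 24.2%. The slopes of FHxSA and 8:2FTS differed for 124 genes (1.29%), 48 higher and 76 lower with FHxSA. Without replicate number 2, 419 and 49 genes differed, without number 3 524 and 36, and without number 1 38 differed from 8:2FTS. The shared genes then numbered 246 for PFTDoDA, 132 for N-EtFOSA-M and 46 for 8:2FTS without number 2, and 267, 197 and 96 without number 3. Without number 1 N-EtFOSA-M shared 263.

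Of the 631 genes higher along FHxSA, 195 (30.9%) were called higher along no other compound, and of the 780 lower ones 136 (17.4%) were called lower along no other. Over all 9443 genes, called along FHxSA or not, 58.7% were called higher and 60.1% lower along none of the other compounds. Between 1 and 4 other compounds called 379 and 557 of them, and 5 or more called 57 and 87. The most widely shared genes were called in 15 and 11 other compounds. Rsub_07655 was among the shared genes and Rsub_01119 among those called higher with FHxSA alone. The slope of Rsub_01119 was higher with FHxSA than with PFTDoDA by 0.24 (adjusted p = 0.0027, edgeR), and than with 8:2FTS by 0.19 (95% interval 0.07 to 0.32, adjusted p = 0.11), a difference that did not pass the threshold. A gene called along FHxSA and not along another compound has not been shown to differ between them unless the slopes were tested, as they were for 4 compounds.

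**Figure D5:**
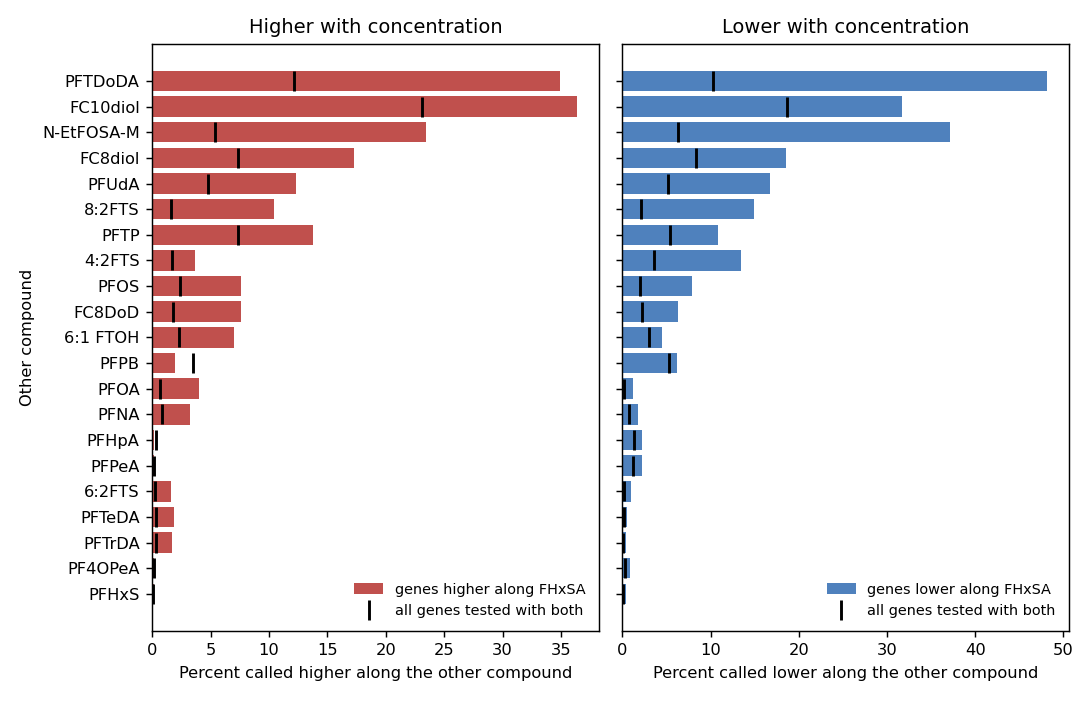
Percent of the genes with an FHxSA trend over treated libraries that were called in the same direction along each of the 21 other compounds (bars), for higher (left) and lower genes (right); black ticks give the percent of all genes tested with both compounds. The bars are long and far from the ticks for PFTDoDA (34.9% and 48.2%) and N-EtFOSA-M (23.4% and 37.2%). For PFHxS both the bars and the ticks (0.0771% and 0.0992%) are close to 0.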

How the data were processed

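The deposited files hold whole-number counts per gene, one table per compound, with the same 13429 identifiers. Per the labels' protocols, libraries came from a 3' tag kit with molecular identifiers. The submitters' processing notes name STAR 2.7.10a, featureCounts 2.0.6, fastp 0.23.2 and SAMtools 1.15.1. Not given in the sources used here are the build, the gene models, strand use and any collapsing of reads with one identifier; without collapsing, precision would be lower than totals imply, and overlapping or near-identical genes can share counts. Each control library stands in 2 tables, with identical values for 33 of 33. Products are not named in the files, so gene groups by product name were not tested.

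Tests were run with edgeR 4.0.16 under R 4.3.3 (filterByExpr, TMM, robust quasi-likelihood fits, Benjamini-Hochberg adjustment over all genes of a fit, threshold 0.05). Trends used the concentration rank. Each other compound's trend came from its own table, and differences between compounds from one joint fit. Curves (linear, power, exponential, Hill; lowest AIC) were fitted to log2 CPM with a prior count of 2. Alternatives were RLE, library totals, no filter, DESeq2 1.42.0, a replicate block and leaving out replicates.

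The members, lists and tests were chosen with earlier results of these data known. Chosen after seeing the present results were the contrasts of 0.3, 3, 10 and 32 against 0.1 µM, that with PFHxS at 0.1 µM, the slope differences, the classes within them, the benchmark values of genes in both fits and the omission of single 10 µM libraries. Named genes were the first 2 rises and 2 falls by log2 fold change at 100 µM among genes called there and in the trend over treated libraries, in the same direction, with a mean of at least 20 counts.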

Additional observations from a re-analysis of the deposited data

Results flagged for a closer look

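FHxSA differed from a related compound by a test of the difference itself in the following results. Against N-EtFOSA-M the levels differed for 8, 57, 63, 47, 283 and 274 genes at 0.1, 1, 3, 10, 32 and 100 µM (edgeR). The change from 0.1 to 100 µM differed for 100 genes and the slope over treated libraries for 173. Against PFHxS the change from the compound's own DMSO differed for 35 genes at 0.1 µM, 580 genes at 10 µM, 612 genes at 32 µM and 975 genes at 100 µM, the change from 0.1 to 100 µM for 74, and the slope for 339. The slope differed from that of PFTDoDA for 853 genes and from that of 8:2FTS for 124.

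Among the named genes, the slope with FHxSA minus that with N-EtFOSA-M was 0.33 for Rsub_01119 and -0.51 for Rsub_03656 in log2 per rank. Minus that with PFHxS it was 0.29 for Rsub_07655 and 0.31 for Rsub_01119. Each of these 4 had an adjusted p under 0.05 (edgeR).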

How the results depend on the processing

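RLE size factors moved no count past 1.5 times, and the calls and directions of the 4 named genes at 100 µM held under every alternative run on them. Without a filter on low counts, 1 gene was called at 1 against 0.1 µM, 77 at 10 against 0.1 µM, 19 at 10 against 3 µM, 12 at 32 against 10 µM, 55 at 100 against 32 µM and 1 at 10 µM against its neighbours. DESeq2 called 240 genes at 3 µM against DMSO, 83 at 10 against 0.1 µM, 13 at 10 against 3 µM, 51 at 100 against 32 µM, and 32 and 210 against N-EtFOSA-M at 0.1 and 1 µM. With library totals in place of TMM factors, 1 gene was called at 1 against 0.1 µM, 2 at 10 against 3 µM and 18 in the curvature. The same setting moved the share of higher calls to 33.3% in the curvature, in place of 19.4%, and to 45.9% in the changes from 0.1 to 100 µM against PFHxS, in place of 32.4%. Without the 100 µM libraries the trend over treated libraries was called for 555 genes. Adjusting over the 7 concentrations together gave 31, 17 and 187 genes against N-EtFOSA-M at 0.1, 0.3 and 32 µM. At 2 residual SD the benchmark medians were 9.98 µM with DMSO and 18.5 µM without it, and the 10th percentiles 0.115 and 3.28 µM. The cause of these shifts was not tested.

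The rule set for pairing by replicate number, a correlation over 0.1 in every pair, was not met. The main tests used no replicate block. Deviations of same-numbered libraries correlated at -0.04 to 0.12, with 6 of 84 pairs over 0.1, against -0.14 to 0.07 for different numbers. Each of the 24 libraries did on average correlate best with its own number. The medians over pairs were 0.04 for same and -0.02 for different numbers. The pattern was seen in the data, and it was not established whether the numbers mark a pairing in the design. Variation shared by number was left in the spread of the main tests. With the replicate block, 164, 303, 264 and 355 genes were called at 0.1, 0.3, 1 and 3 µM against DMSO. Without it these counts were 84, 152, 122 and 157. Under the block, 1, 142 and 539 were called at 1, 10 and 32 µM against 0.1 µM, 33 at 10 against 3 µM, 5 at 32 against 10 µM, 85 at 100 against 32 µM and 55 in the curvature. Against N-EtFOSA-M the block gave 87, 22, 300, 132 and 81 genes from 0.1 to 10 µM and 172 in the changes from 0.1 to 100 µM. Against PFHxS it gave 77 at 0.1 µM and 172 in the changes from 0.1 to 100 µM, and the slope differed from 8:2FTS for 199.

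Leaving out libraries gave the following lowest and highest counts, with fewer libraries in each fit. Against DMSO they were 6 to 49 genes at 0.1 µM, 8 to 109 at 0.3 µM, 10 to 89 at 1 µM, 23 to 131 at 3 µM, 135 to 729 at 10 µM, 470 to 963 at 32 µM and 758 to 1156 at 100 µM. Against 0.1 µM they were 0 to 1 at 0.3, 1 and 3 µM, 4 to 196 at 10 µM, 74 to 203 at 32 µM and 329 to 419 at 100 µM. They were 0 to 85 for 10 against 3 µM, 0 to 9 for 32 against 10 µM and 2 to 14 for 100 against 32 µM. The trend was called for 1184 to 1763 genes with DMSO and 724 to 1000 without it, and the curvature for 1 to 26. Against N-EtFOSA-M the counts were 1 to 29 at 0.1 µM, 0 to 17 at 0.3 µM, 0 to 185 at 1 µM, 1 to 157 at 3 µM, 7 to 77 at 10 µM, 67 to 324 at 32 µM, 79 to 241 at 100 µM, 25 to 85 in the changes from 0.1 µM and 61 to 137 in the slope. Against PFHxS they were 2 to 45 at 0.1 µM, 80 to 591 at 10 µM, 47 to 484 at 32 µM, 173 to 685 at 100 µM, 7 to 65 in the changes from 0.1 µM and 75 to 242 in the slope. The slope differed for 419 to 624 genes from PFTDoDA and 36 to 49 from 8:2FTS. Shared trend genes numbered 246 to 405 with PFTDoDA, 132 to 263 with N-EtFOSA-M and 46 to 155 with 8:2FTS. The benchmark medians were 3.16 to 3.58 µM with DMSO and 5.49 to 6.18 µM without it, and the 10th percentiles 0.0418 to 0.0652 µM and 0.887 to 1.17 µM. At this depth small changes of scarce genes were not detectable.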
